A study of Caenorhabditis elegans with 8 samples.

Results

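The comparison described here is the interaction of genotype and stage in *Caenorhabditis elegans*, that is, how far the transcript change between dauer and post-dauer differed between animals without and with AMP-activated protein kinase (AMPK). It used all 8 libraries of the series, in 4 groups of 2, and was tested in 15365 of the 46904 genes in the files, those with a mean of at least 1 FPKM (fragments for each kilobase of transcript, on a scale that allows for library size). The groups were daf-2; aak(0); hzl-1 post-dauers and dauers, written aak(0) from here on, and daf-2; hzl-1 post-dauers and dauers, written hzl-1 daf-2. The name aak(0) stands for loss of both aak-1 and aak-2, and every group, controls included, carried the daf-2 and hzl-1 mutations. Whole hermaphrodites were grown at 25 °C. Dauers were collected at 96 h and post-dauers at 192 h, and the series text places a shift to permissive temperature before the post-dauer collection. The labels number 2 libraries per group but do not state whether their worms were grown apart, so p-values may measure technical spread only. Animals with intact hzl-1 or daf-2 were not analysed here.

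AMPK is a heterotrimeric kinase that senses low cellular energy; its catalytic alpha subunit is encoded in the worm by aak-1 and aak-2. The dauer is a non-feeding larva of arrested development that forms under crowding or starvation, or when the insulin/IGF receptor DAF-2 is impaired. Germ cells normally stop dividing in it, and AMPK is known to be needed for that quiescence and for rationing stored fat. After dauer exit the animal feeds, molts, makes sperm and then oocytes, and loads oocytes with yolk from the intestine.

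Library totals ran between 13992157 and 26984881 reads. The 2 libraries of a group correlated across genes with a Spearman coefficient of 0.935 in aak(0) post-dauers, 0.979 in aak(0) dauers, 0.977 in hzl-1 daf-2 post-dauers and 0.939 in hzl-1 daf-2 dauers, so post-dauers without AMPK and dauers with it held most of the spread. The stage labels were checked against marker genes by summed FPKM. Adult hermaphrodite markers (vit-2, vit-6 and ule-1, 3 of 3 tested) summed to 3290 and 2537 FPKM in aak(0) post-dauers, 5.78 and 0.69 in aak(0) dauers, 10638 and 11408 in hzl-1 daf-2 post-dauers and 0.88 and 0.71 in hzl-1 daf-2 dauers. Dauer cuticle markers (col-2, col-37, col-40 and cut-6, 4 of 4 tested) summed to 2.95 and 2.02 FPKM in aak(0) post-dauers, 5841 and 5785 in aak(0) dauers, 1.9 and 1.89 in hzl-1 daf-2 post-dauers, and 36.4 and 2836 in hzl-1 daf-2 dauers. Library 1 of the hzl-1 daf-2 dauers thus stood apart from library 2. Some of the counts that moved without either are given below, but not all. Male somatic markers summed to at most 0.83 FPKM in any library.

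The genes that define the genotypes were measured first. The files held aak-1 (WBGene00019801, WBcel235, III:8756995-8761101) at 7.16 and 7.72 FPKM in aak(0) post-dauers and 14.7 and 9.99 in aak(0) dauers, against 8.75 and 8.59 in hzl-1 daf-2 post-dauers and 3.1 and 3.19 in hzl-1 daf-2 dauers. The hzl-1 daf-2 dauers were lowest, without overlap with the other groups. Its interaction was log2 -1.86 ± 0.34 (SE) by limma, with a Benjamini-Hochberg adjusted p = 0.0196, and it was called in 4 of the 8 fits that left out a library. It shares 100 exonic bases with sma-2 on the opposite strand. For aak-2 (WBGene00020142, X:16796087-16803357) the values were 9.85 and 9.4 FPKM in aak(0) post-dauers and 37.9 and 49.2 in aak(0) dauers, against 20.2 and 18.4 in hzl-1 daf-2 post-dauers and 35.6 and 43.6 in hzl-1 daf-2 dauers. Its interaction missed the threshold (log2 -1.06 ± 0.28, adjusted p = 0.0579), though it was called in 1 of the 8 fits that left out a library. Transcripts of both genes were therefore read in the aak(0) libraries; a total per gene does not show whether a deleted or mutated part was missing, so these levels do not check the label. The kinase's 12 listed genes (subunits and upstream kinases) held, against 3.54% of all tested genes higher and 7.8% lower, 1 gene called higher, the beta subunit gene aakb-1 (log2 1.19 ± 0.28, adjusted p = 0.0429), and 1 called lower, aak-1. The call of aakb-1 was lost in each of the 8 fits without a library. Neither hzl-1, listed as C44H9.4 (log2 0.07 ± 0.71, adjusted p = 0.952), nor daf-2 (log2 -0.46 ± 0.52, adjusted p = 0.573) was called.

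A positive interaction means that post-dauer minus dauer was higher in aak(0) than in hzl-1 daf-2 on log2(FPKM + 1), a scale that understates changes of low genes. Limma called 1743 genes at an adjusted p under 0.05, 11.3% of those tested, of which 544 (3.54%) were higher and 1199 (7.8%) lower. The median interaction over all tested genes was log2 -0.34, and list medians below are also given relative to it. Centring each library on its median moved that value to -0.03 and the split to 1007 higher (6.55%) and 963 lower (6.27%) of 1970 calls (12.8%). By edgeR on recovered whole reads, 2219 of 17050 genes were called (13%), 891 higher (5.23%) and 1328 lower (7.79%); 1233 genes were called by both tools in the same direction, 70.7% of limma's calls and 55.6% of edgeR's, and 0 in opposite directions. The number of limma's calls was 352 without aak(0) dauer library 1, 424 without library 2, 502 and 549 without hzl-1 daf-2 post-dauer libraries 1 and 2, 3947 without aak(0) post-dauer library 1 and 2872 without hzl-1 daf-2 dauer library 2. It was 1338 and 1602 without aak(0) post-dauer library 2 and hzl-1 daf-2 dauer library 1. In all 8 such fits 313 genes were called in the same direction.

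The 4 simple differences behind the interaction differed in size. Post-dauer minus dauer was called for 52.9% of genes in aak(0) (25.9% higher, 27% lower) and for 67.3% in hzl-1 daf-2 (39.4% higher, 27.8% lower). The aak(0) minus hzl-1 daf-2 difference was called for 4.66% of genes in post-dauers (4.22% higher, 0.443% lower) and for 29.1% in dauers (25.5% higher, 3.6% lower). The genotypes thus differed at more genes as dauers than as post-dauers by the number of calls; the interaction itself is the test of the difference at each gene. Stage changes were called in opposite directions for 59 genes.

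**Figure D1:**
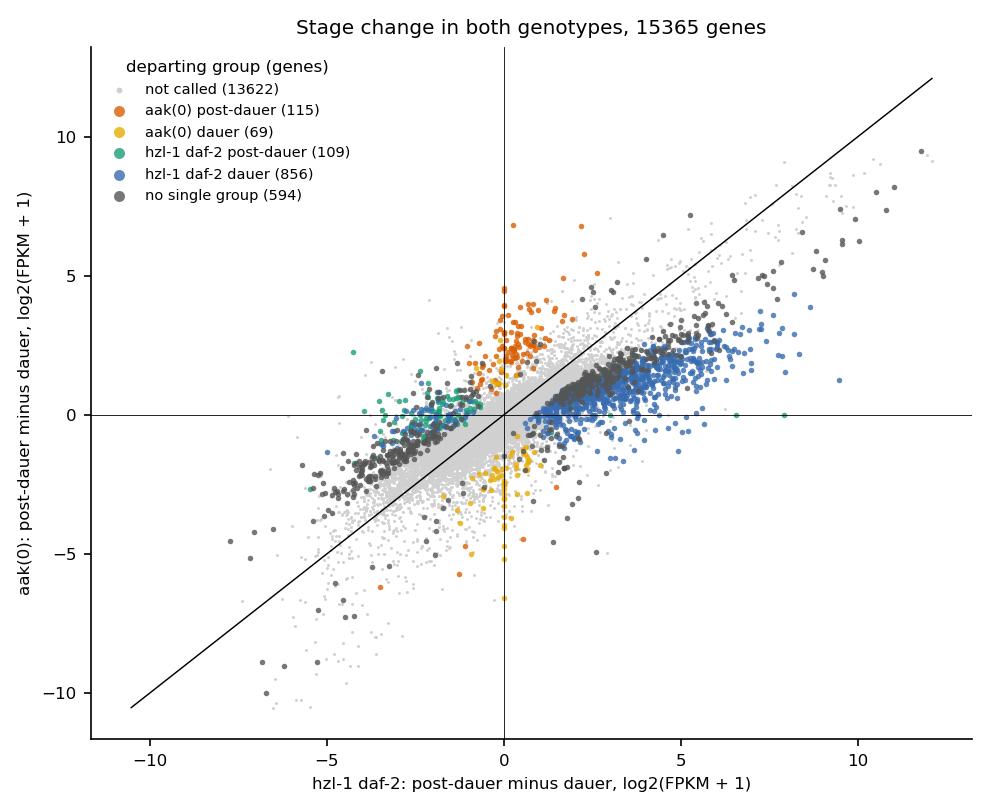
Each point is 1 of the 15365 tested genes, with post-dauer minus dauer in hzl-1 daf-2 on the x axis and in aak(0) on the y axis, both on log2(FPKM + 1); colours mark the group that departs among called genes, and the diagonal line marks equal change. The 856 genes where hzl-1 daf-2 dauers depart lie mainly to the right of the line, at large stage changes in hzl-1 daf-2.

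Called genes were sorted by the group that departed. A gene was given a departing group where the gap between its highest or lowest group mean and the next was wider than the range of the other 3 means. Genes named for their departing group were chosen with both of its libraries outside the range of the rest, so that separation is no result. The hzl-1 daf-2 dauers were the low group for 792 genes, 45.4% of the calls, and the high group for 64. The aak(0) post-dauers were high for 110 and low for 5, the hzl-1 daf-2 post-dauers low for 101 and high for 8, and the aak(0) dauers high for 58 and low for 11. No single group departed for 594 genes, 518 with stage changes of the same sign and 76 with opposite signs. The sort is a description without a test: 186 genes lay just inside its limit (a gap of 1 to 1.2 times the range) and 185 just outside (0.8 to 1). EdgeR also called 595 of the 792 genes and 86 of the 101, but 42 of the 110 and 16 of the 58. The number of genes where the hzl-1 daf-2 dauers departed, 856 with both directions, was 196 and 238 without aak(0) dauer libraries 1 and 2, 266 and 293 without hzl-1 daf-2 post-dauer libraries 1 and 2, 1290 without aak(0) post-dauer library 1 and 1404 without hzl-1 daf-2 dauer library 2. The other groups' counts moved by over 1.5 times without some of these 6 libraries and not without the other 2. The 110 and the 58 genes had median levels under 1 FPKM in all 3 other groups, where the pseudocount weighs most.

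**Figure D2:**
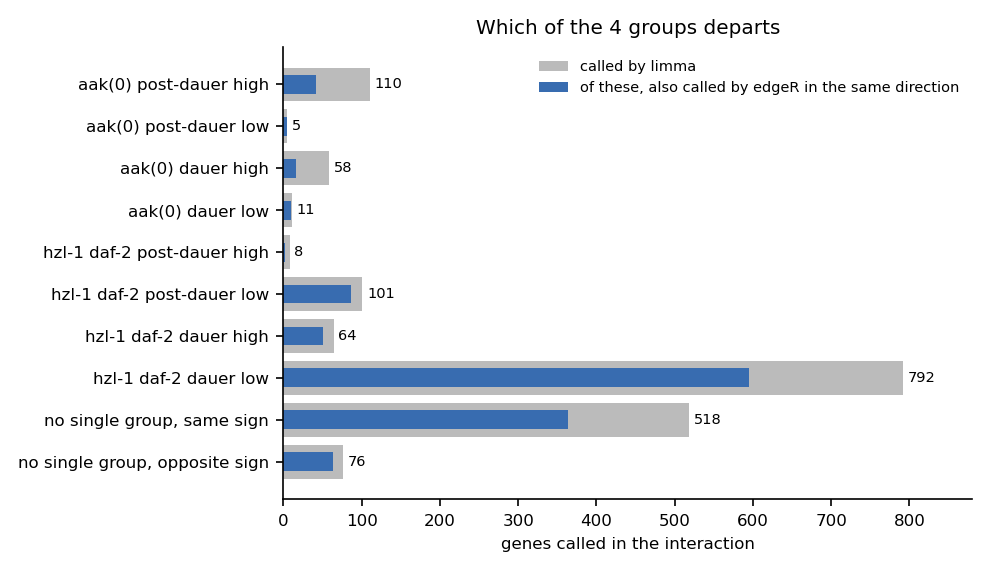
Bars give the number of genes called in the interaction by limma for each departing group and direction, and the narrow blue bars those that edgeR also called in the same direction. The largest class, hzl-1 daf-2 dauer low, holds 792 genes, of which 595 were called by both tools.

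The classes had separate library profiles. Genes with low hzl-1 daf-2 dauers had a median of 55.4 and 50.6 FPKM in aak(0) post-dauers, 26.8 and 26.4 in aak(0) dauers, 49.3 and 48.7 in hzl-1 daf-2 post-dauers and 2.29 and 3.66 in hzl-1 daf-2 dauers. In this class the aak(0) dauers stood between their own post-dauers and the hzl-1 daf-2 dauers. Genes with high aak(0) post-dauers had a median of 10.7 and 10.03 FPKM there and under 1 FPKM in all other libraries. Genes with low hzl-1 daf-2 post-dauers had 5.82 and 5.49 FPKM there and between 22.3 and 27.97 elsewhere. Of all tested genes 13.6% lay on the X chromosome, against 8.21% of the 792 genes with low hzl-1 daf-2 dauers and 16.8% of the 101 with low hzl-1 daf-2 post-dauers.

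**Figure D3:**
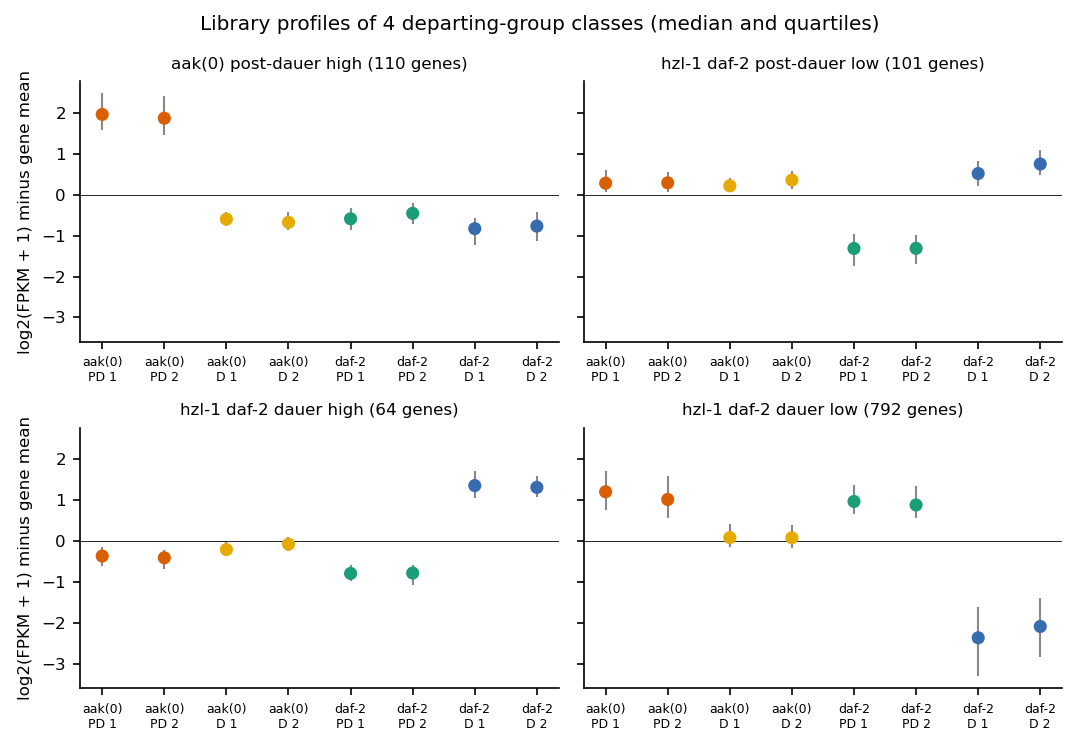
Points give, for each library (PD post-dauer, D dauer, daf-2 for hzl-1 daf-2), the median over genes of log2(FPKM + 1) minus the gene's own mean over the 8 libraries; bars are the quartiles over genes. Both libraries of the departing group stand apart in each of the 4 panels, which the sort itself fixes.

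Oocyte and eggshell genes were lower in the interaction as a group. Of 31 tested genes 24 were called lower and 0 higher, with a median of log2 -2.93, or -2.59 relative to all genes; edgeR called 24 lower as well, and 23 to 25 were called when any one library was left out. In 19 of the 24 the hzl-1 daf-2 dauers departed. Over all tested genes 7.8% were called lower and 3.54% higher. Calls over all genes also moved in the fits without a library. List counts in those fits, here and below, are not set against that moved share. In whole animals, fewer cells of a type and less RNA per cell cannot be told apart, which holds for every list below. The chitin-binding eggshell protein gene cbd-1 (WBGene00010351, IV:11372991-11377627) stood at 417 and 321 FPKM in aak(0) post-dauers and 115 and 122 in aak(0) dauers, against 642 and 580.1 in hzl-1 daf-2 post-dauers and 3.97 and 3.72 in hzl-1 daf-2 dauers. No groups overlapped, and the dauers without AMPK lay far above those with it. Its interaction was log2 -5.36 ± 0.23 (limma, adjusted p = 0.0017), the difference between a stage change of 1.62 in aak(0) and one of 6.98 in hzl-1 daf-2.

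The yolk receptor gene rme-2 showed the same order, with 234 and 212 FPKM in aak(0) post-dauers and 65.02 and 65.4 in aak(0) dauers, against 355 and 331 in hzl-1 daf-2 post-dauers and 2.22 and 3.74 in hzl-1 daf-2 dauers (log2 -4.70 ± 0.29, adjusted p = 0.0017). The eggshell proteoglycan gene cpg-2 had 1584 and 2020 FPKM in aak(0) post-dauers and 377 and 334 in aak(0) dauers, against 1762 and 1695 in hzl-1 daf-2 post-dauers and 18.02 and 22.69 in hzl-1 daf-2 dauers (log2 -4.02 ± 0.26, adjusted p = 0.0017). For both genes the dauer groups lay much further apart than the post-dauer groups. Other members called lower were the maternal RNA-binding protein genes puf-5 (log2 -4.16), mex-5 (-3.95), pos-1 (-3.59) and oma-1 (-2.51), the egg-surface genes egg-1 and egg-2 (-4.57 and -3.50), and the chitin synthase gene chs-1 (-3.27). As simple differences, 26 of the 31 genes were higher in aak(0) than in hzl-1 daf-2 dauers, and none was called between the post-dauers by limma, where 5 had an unadjusted p under 0.05. The summed FPKM of the oocyte markers (6 of 6 tested) was 1793 and 1925 in aak(0) post-dauers, 408 and 397 in aak(0) dauers, 2285 and 2224 in hzl-1 daf-2 post-dauers and 20.0 and 23.8 in hzl-1 daf-2 dauers, with no marker at 0.

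Sperm genes had an interaction of the same sign. Major sperm proteins are the cytoskeletal proteins that drive sperm crawling. Of 30 tested genes for them 25 were called lower and 0 higher, against 7.8% and 3.54% of all genes. Their median was log2 -2.46, or -2.13 relative to all genes. EdgeR called 22 lower. The gene msp-51 (IV:5294922-5295375) had 723 and 723 FPKM in aak(0) post-dauers and 81.6 and 76.6 in aak(0) dauers, against 531 and 393 in hzl-1 daf-2 post-dauers and 2.85 and 3.78 in hzl-1 daf-2 dauers. Dauers without AMPK were again well above those with it, with no overlap (log2 -3.56 ± 0.27, adjusted p = 0.00172). These genes are near-identical copies, so how reads were shared among them is uncertain. The count fell to 16 without aak(0) post-dauer library 2, to 12 and 13 without aak(0) dauer libraries 1 and 2, and to 13 and 14 without hzl-1 daf-2 post-dauer libraries 1 and 2. Of 31 other sperm genes 11 were called lower, against 7.8% of all genes. Among the 11 were the sperm-specific family genes ssp-34 (limma, log2 -3.02 ± 0.41, adjusted p = 0.00836) and ssp-10 (log2 -2.39 ± 0.34, adjusted p = 0.00911). That count was 0 and 1 without aak(0) dauer libraries 1 and 2, 0 and 3 without hzl-1 daf-2 post-dauer libraries 1 and 2, 7 without hzl-1 daf-2 dauer library 1, and 17 and 7 without aak(0) post-dauer libraries 1 and 2. The sperm markers (4 of 5 tested) summed to 1095 and 1099 FPKM in aak(0) post-dauers, 219.29 and 243.92 in aak(0) dauers, 696 and 548 in hzl-1 daf-2 post-dauers and 17.3 and 31.2 in hzl-1 daf-2 dauers.

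Genes of dividing germ cells and germ granules followed with smaller interactions. For DNA replication and the cell cycle 17 of 39 genes were called lower and 0 higher, against 7.8% and 3.54% of all genes. The median was log2 -0.99, or -0.65 relative to all genes. The ribonucleotide reductase subunit gene rnr-2 (III:4093306-4094921), which supplies deoxynucleotides, had 483 and 462 FPKM in aak(0) post-dauers and 150.4 and 159.7 in aak(0) dauers, against 433 and 478 in hzl-1 daf-2 post-dauers and 17.6 and 19.1 in hzl-1 daf-2 dauers. The post-dauer groups overlapped and the dauer groups did not (log2 -2.96 ± 0.18, adjusted p = 0.0017). The cyclin gene cyb-3 (log2 -2.08) and the kinase genes plk-1 (-1.52) and air-1 (-1.42) were also called. The count depended on scaling, with 8 called lower by edgeR and 5 in the median-centred fit. It was also lower without either aak(0) dauer or either hzl-1 daf-2 post-dauer library, fits in which calls over all genes fell as well. P granule genes encode parts of the RNA-protein granules of germ cells. Of 21 such genes 13 were called lower, against 7.8% of all genes (edgeR 9, median-centred 8). The count was 5 and 6 without aak(0) dauer libraries 1 and 2 and 6 and 8 without hzl-1 daf-2 post-dauer libraries 1 and 2. The P granule gene meg-1 had 66.9 and 68.1 FPKM in aak(0) post-dauers and 10.5 and 9.61 in aak(0) dauers, against 62.7 and 68.8 in hzl-1 daf-2 post-dauers and 0.03 and 0.3 in hzl-1 daf-2 dauers (log2 -3.22 ± 0.28, adjusted p = 0.00218).

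Germline regulators were less uniform. Of 41 genes for germline stem cell fate and meiosis 1 was called higher and 4 lower, and of 43 small RNA pathway genes 7 were called lower, against 3.54% of all genes higher and 7.8% lower. The germline share was near that of all genes in both directions. The 1 higher call was lost without either aak(0) dauer library and became 2 without aak(0) post-dauer library 2. The lower calls of these 2 lists rose without aak(0) post-dauer library 1, as did calls over all genes. They were 1 and 2 without either aak(0) dauer library, 2 and 2 without hzl-1 daf-2 post-dauer library 1, 1 and 3 without hzl-1 daf-2 post-dauer library 2, and 4 and 4 without aak(0) post-dauer library 2. The translational repressor gene gld-1 (log2 -2.53 ± 0.23, adjusted p = 0.00267) and the Argonaute genes wago-1 (log2 -2.62 ± 0.20, adjusted p = 0.00172) and hrde-1 (log2 -2.43 ± 0.29, adjusted p = 0.00548) were called in all 8 fits without a library. The markers of proliferating or meiotic germ cells (5 of 5 tested) summed to 609 and 539 FPKM in aak(0) post-dauers, 199 and 195 in aak(0) dauers, 711 and 662 in hzl-1 daf-2 post-dauers and 130.5 and 92.7 in hzl-1 daf-2 dauers. The dauer groups were closer in this sum than in the oocyte and sperm sums, and no marker was at 0. The part of these cell numbers in the germline results was not tested.

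**Figure D4:**
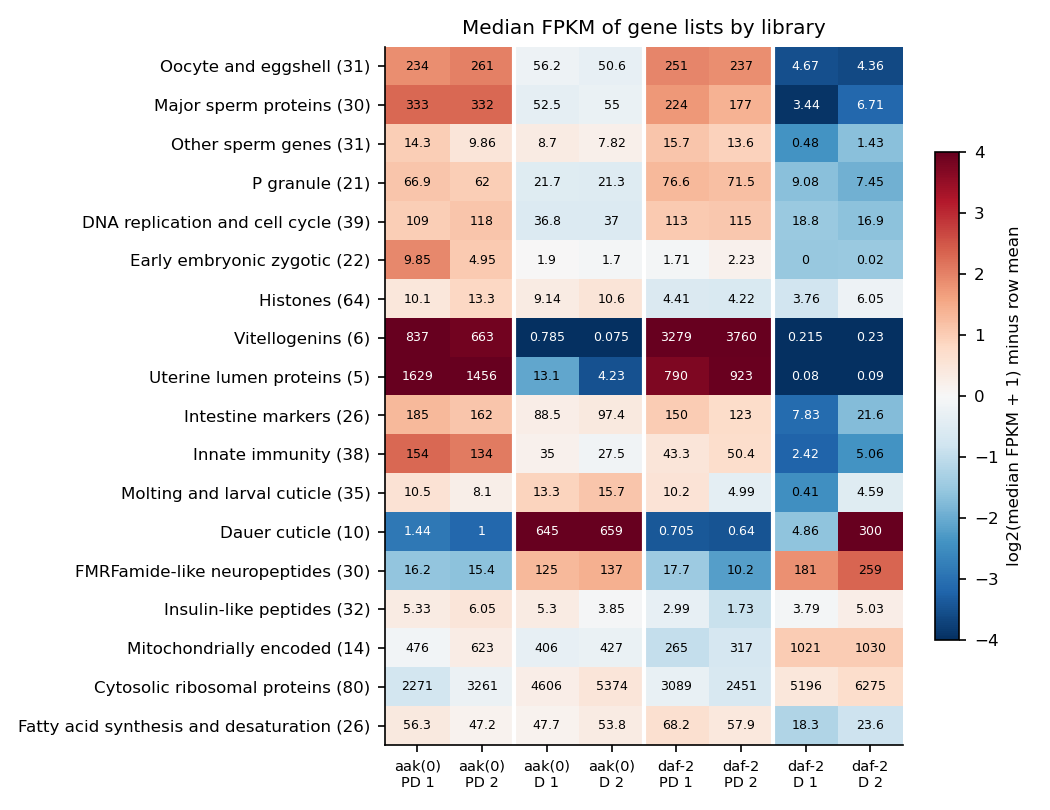
Cells give the median FPKM of the tested members of each list (number in brackets) in each library, coloured by log2(median FPKM + 1) minus the row mean, with the colour limited at 4 in either direction. Oocyte, sperm, intestine and immunity rows are lowest in both hzl-1 daf-2 dauer libraries, and the dauer cuticle row separates hzl-1 daf-2 dauer library 1 (4.86) from library 2 (300.3).

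Intestinal genes of digestion and defence also had low hzl-1 daf-2 dauers. Of 26 intestine genes 12 were called lower and 0 higher, against 7.8% and 3.54% of all genes. The median was log2 -1.18 (-0.85 relative to all genes), and the hzl-1 daf-2 dauers departed in all 12. EdgeR called 9 and the median-centred fit 8. Of the 12, 1 passed the filter only through the aak(0) dauers, the mean of the other 6 libraries being under 1 FPKM. That 1 call is a description and not part of a share to set against all genes. The saposin-like gene spp-3 (X:7314969-7315353) had 1561 and 1301 FPKM in aak(0) post-dauers and 218 and 233 in aak(0) dauers, against 948 and 1218 in hzl-1 daf-2 post-dauers and 5.39 and 5.21 in hzl-1 daf-2 dauers. The aak(0) dauers lay far above the hzl-1 daf-2 dauers, and the aak(0) post-dauers lay slightly above the hzl-1 daf-2 post-dauers (log2 -4.76 ± 0.24, adjusted p = 0.0017). The aspartyl protease gene asp-2 (V:9203077-9204734) had 678 and 646 FPKM in aak(0) post-dauers and 73.54 and 74.97 in aak(0) dauers, against 549 and 602 in hzl-1 daf-2 post-dauers and 0.86 and 2.25 in hzl-1 daf-2 dauers (log2 -4.73 ± 0.36, adjusted p = 0.00172). The proteases asp-1, asp-3, asp-5, asp-6 and cpr-5 were called lower as well, between log2 -4.82 (cpr-5) and -3.06 (asp-6). The count of 12 was 6 without aak(0) post-dauer library 2 and 3 without either aak(0) dauer or either hzl-1 daf-2 post-dauer library. The intestine markers were elt-2, ges-1, ifb-2 and act-5 (4 of 4 tested). They summed to 648 and 715 FPKM in aak(0) post-dauers and 588 and 643 in aak(0) dauers. The sums were 633 and 556 in hzl-1 daf-2 post-dauers and 335 and 472 in hzl-1 daf-2 dauers. These sums mixed opposite stage changes. In both genotypes elt-2 and ifb-2 were higher in dauers, and ges-1 and act-5 were higher in post-dauers. Like the proteases, ges-1 and act-5 were lowest in the hzl-1 daf-2 dauers. For act-5 the values were 237 and 254 FPKM in aak(0) dauers against 73.7 and 98.4 in hzl-1 daf-2 dauers. For elt-2 and ifb-2 the dauer groups overlapped. The part of intestinal cell amount in the result was not tested. The actin gene act-5 was itself among the 12.

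Of 38 innate immunity genes 10 were called lower and 1 higher, against 7.8% and 3.54% of all genes, and edgeR called 11 lower and 5 higher. The infection-response gene irg-4 had 75.3 and 50.5 FPKM in aak(0) post-dauers and 28.9 and 25.9 in aak(0) dauers, against 22.92 and 27.96 in hzl-1 daf-2 post-dauers and 0.29 and 0.06 in hzl-1 daf-2 dauers (log2 -3.35 ± 0.36, adjusted p = 0.00397). The saposin-like gene spp-17 (log2 -3.56 ± 0.36, adjusted p = 0.0033), the lysozyme gene lys-2 (log2 -3.48) and the lectin gene clec-63 (log2 -2.76) were called lower. The antimicrobial peptide gene abf-2 was the one called higher (adjusted p = 0.0145), with low hzl-1 daf-2 post-dauers at 41.6 and 42.8 FPKM. The 1 higher call became 5 without hzl-1 daf-2 dauer library 1 and 3 without aak(0) post-dauer library 1, and 0 without either aak(0) dauer or either hzl-1 daf-2 post-dauer library. The count of 10 was 3 and 4 without aak(0) dauer libraries 1 and 2 and 4 and 4 without hzl-1 daf-2 post-dauer libraries 1 and 2.

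The pud genes, named for proteins up-regulated in daf-2 mutants, were called lower in 6 of 6 tested, against 7.8% of all genes. The family was chosen for mention after its values were seen. The gene pud-2.1 (V:2329444-2329954) had 962 and 773 FPKM in aak(0) post-dauers and 278 and 474 in aak(0) dauers, against 836 and 1368 in hzl-1 daf-2 post-dauers and 1.27 and 0 in hzl-1 daf-2 dauers. Both hzl-1 daf-2 dauer libraries lay far below all others, though the naming rule required both to lie outside the range of the rest (limma, log2 -8.23 ± 0.64, adjusted p = 0.00178, and edgeR adjusted p = 0.0185). These levels of pud-2.1 rested on few recovered reads. They were 70 and 96 in aak(0) post-dauers, 11 and 36 in aak(0) dauers, 87 and 158 in hzl-1 daf-2 post-dauers and 0 and 1 in hzl-1 daf-2 dauers. The interaction by edgeR was log2 -5.47. The pud genes are near-identical in pairs, so reads between copies may be split.

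Cuticle genes gave large single interactions and a list that turned on 1 library. The collagen gene sqt-1 (II:11336693-11337837) had 16.7 and 17.1 FPKM in aak(0) post-dauers and 27.7 and 25.5 in aak(0) dauers, against 42.8 and 23.3 in hzl-1 daf-2 post-dauers, and was listed at 0 in both hzl-1 daf-2 dauer libraries, from 0 and 1 reads. The collagen gene col-17 (II:4866436-4867576) had 16.47 and 14.64 FPKM in aak(0) post-dauers and 37.57 and 41.12 in aak(0) dauers, against 46.1 and 20.8 in hzl-1 daf-2 post-dauers and 0 and 0.12 in hzl-1 daf-2 dauers. Both were near absent from the hzl-1 daf-2 dauers alone, and both were called (limma, adjusted p = 0.00172 for sqt-1 and 0.00191 for col-17). Of 35 molting and larval cuticle genes 8 were called lower and 0 higher, against 7.8% and 3.54% of all genes. Among the 8 were dpy-5 (log2 -5.35 ± 0.46), dpy-13 (-5.25) and the molting regulator gene nhr-23 (-1.25). Without hzl-1 daf-2 dauer library 2 the count was 25; it was 5 without aak(0) post-dauer library 2, 4 and 4 without aak(0) dauer libraries 1 and 2, and 4 and 5 without hzl-1 daf-2 post-dauer libraries 1 and 2. Of 10 dauer cuticle genes 0 were called by limma, edgeR or DESeq2, and 0 had an unadjusted p under 0.05 by limma. Without hzl-1 daf-2 dauer library 2, all 10 were called lower. Their median FPKM was 1.44 and 1.00 in aak(0) post-dauers, 645 and 659 in aak(0) dauers, 0.705 and 0.64 in hzl-1 daf-2 post-dauers and 4.86 and 300.3 in hzl-1 daf-2 dauers. Epidermal markers (3 of 3 tested, led by the adult collagen gene col-19) summed to 1028 and 1202 FPKM in aak(0) post-dauers, 33.4 and 26.1 in aak(0) dauers, 861 and 764 in hzl-1 daf-2 post-dauers and 6.31 and 9.47 in hzl-1 daf-2 dauers, and their part in the result was not tested.

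Energy metabolism moved in smaller steps. Of 26 fatty acid synthesis and desaturation genes 8 were called lower and 0 higher, against 7.8% and 3.54% of all genes. The median was log2 -0.82 (-0.49 relative to all genes), and 5 of the 8 had low hzl-1 daf-2 dauers. The elongase gene elo-5, which makes branched-chain fatty acids, had 134 and 93.4 FPKM in aak(0) post-dauers and 54.5 and 59.1 in aak(0) dauers, against 147 and 172 in hzl-1 daf-2 post-dauers and 12.7 and 13.5 in hzl-1 daf-2 dauers (log2 -2.53 ± 0.29, adjusted p = 0.00466). It shares 162 of 922 exonic bases with F41H10.3 on the opposite strand. The elongase gene elo-6 was also called lower (log2 -2.14 ± 0.27, adjusted p = 0.00667). Glyoxylate cycle, gluconeogenesis and glycogen genes, a list that also holds hexokinase, were called lower in 8 of 32, against 7.8% of all genes. EdgeR called 3 lower and the median-centred fit 3. The 8 included the glycogen phosphorylase gene pygl-1 (limma, log2 -1.97 ± 0.23, adjusted p = 0.00476) and the hexokinase gene hxk-1 (log2 -1.99 ± 0.24, adjusted p = 0.00596). Both lists fell to 2 or 3 calls without either aak(0) dauer or either hzl-1 daf-2 post-dauer library, and fatty acid synthesis to 3 without aak(0) post-dauer library 2.

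Stored fat is released by lipases and coated by perilipin. Of 26 lipase and lipid droplet genes 2 were called higher and 3 lower, against 3.54% and 7.8% of all genes. The perilipin gene plin-1 had 209 and 196 FPKM in aak(0) post-dauers and 116 and 129 in aak(0) dauers, against 282 and 256 in hzl-1 daf-2 post-dauers and 54.1 and 62.8 in hzl-1 daf-2 dauers. The groups did not overlap (log2 -1.47 ± 0.20, adjusted p = 0.00889; edgeR adjusted p = 0.0511). Without hzl-1 daf-2 dauer library 2 the lower calls were 10, without aak(0) post-dauer library 1 they were 8, and without either aak(0) dauer, either hzl-1 daf-2 post-dauer or hzl-1 daf-2 dauer library 1 they were 0 or 1. The higher calls were 1 without aak(0) post-dauer library 2 or either aak(0) dauer library. Beta-oxidation genes were called lower in 3 of 39 and autophagy and vacuolar ATPase genes in 2 of 44, near or below the 7.8% of all genes; DESeq2 called 6 and 1. These 2 counts were 11 and 8 without aak(0) post-dauer library 1, 6 and 5 without hzl-1 daf-2 dauer library 2, 1 and 1 without hzl-1 daf-2 dauer library 1, and 0 without either aak(0) dauer or either hzl-1 daf-2 post-dauer library. Beta-oxidation also had 0 without aak(0) post-dauer library 2.

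A small class of genes was high in the hzl-1 daf-2 dauers. The gene fipr-13 (V:10064503-10064939), of a family related to fungus-induced peptides, had 80.5 and 100.5 FPKM in aak(0) post-dauers and 45.3 and 35.4 in aak(0) dauers, against 52.7 and 57.9 in hzl-1 daf-2 post-dauers and 293 and 274 in hzl-1 daf-2 dauers. Both hzl-1 daf-2 dauer libraries lay far above all others, though the naming rule required both to lie outside the range of the rest (limma, log2 3.49 ± 0.26, adjusted p = 0.00172). The sperm fate gene fog-3 had 6.74 and 5.86 FPKM in aak(0) post-dauers and 5.29 and 5.02 in aak(0) dauers, against 3.94 and 3.23 in hzl-1 daf-2 post-dauers and 22.4 and 17.8 in hzl-1 daf-2 dauers (log2 2.44 ± 0.32, adjusted p = 0.00679). The hzl-1 daf-2 dauers were thus the highest group for fog-3 and the lowest for the major sperm protein genes. The gene snpc-1.3, for a subunit of the complex that activates small nuclear RNA promoters, had 5.58 and 3.56 FPKM in aak(0) post-dauers and 3.91 and 3.68 in aak(0) dauers, against 2.13 and 2.85 in hzl-1 daf-2 post-dauers and 23.26 and 16.12 in hzl-1 daf-2 dauers (log2 2.75 ± 0.41, adjusted p = 0.0108). The trehalase gene tre-2 (log2 1.21 ± 0.24, adjusted p = 0.025) and the small heat shock gene hsp-12.1 (log2 1.98 ± 0.36, adjusted p = 0.0201) were also in this class. So was the histone gene his-46, which rested on 1 to 7 reads per library and was not tested by edgeR.

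The linker histone genes hil-3 and his-24 had the largest interactions among the genes named from the 101 with low hzl-1 daf-2 post-dauers. Other linker histones did not share this as a class. Of 7 tested hil genes 2 were called higher and 1 lower, against 3.54% and 7.8% of all genes. Only 1, hil-3, had low hzl-1 daf-2 post-dauers. The H1 gene hil-3 (X:8159153-8160084) had 176 and 175 FPKM in aak(0) post-dauers and 137 and 188 in aak(0) dauers, against 20.8 and 18.7 in hzl-1 daf-2 post-dauers and 274 and 371 in hzl-1 daf-2 dauers. The hzl-1 daf-2 post-dauers were lower by a wide margin than all other libraries, though the naming rule required both to lie outside their range (limma, log2 4.08 ± 0.30, adjusted p = 0.00172). The H1 gene his-24 (X:14490094-14491115) had 307 and 301 FPKM in aak(0) post-dauers and 89.85 and 111.97 in aak(0) dauers, against 19.7 and 20.2 in hzl-1 daf-2 post-dauers and 81.5 and 140.3 in hzl-1 daf-2 dauers. It rose with stage in aak(0) (log2 1.59) and fell with stage in hzl-1 daf-2 (log2 -2.37), and the dauer groups overlapped (interaction log2 3.95 ± 0.37, adjusted p = 0.00267). Of 64 histone genes 11 were called higher and 4 lower, against 3.54% and 7.8% of all genes. Many are identical copies with shared reads, such as his-10, his-14 and his-26, which had the same values in the files. The 11 were 5 and 4 without aak(0) dauer libraries 1 and 2 and 6 and 7 without hzl-1 daf-2 post-dauer libraries 1 and 2; the 4 were 1 and 1, and 1 and 2, without the same libraries.

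The developmental transcription factor genes vab-3 and ceh-32, of the Pax and sine oculis families and known for head development, were in the same class. For vab-3 (X:10505988-10519563) the values were 7.47 and 4.3 FPKM in aak(0) post-dauers and 5.51 and 4.39 in aak(0) dauers, against 0.82 and 0.59 in hzl-1 daf-2 post-dauers and 18.79 and 16.02 in hzl-1 daf-2 dauers (log2 3.61 ± 0.41, adjusted p = 0.00476). For ceh-32 they were 9.1 and 5.63 in aak(0) post-dauers and 4.62 and 4.55 in aak(0) dauers, against 0.69 and 0.87 in hzl-1 daf-2 post-dauers and 12.4 and 10.3 in hzl-1 daf-2 dauers (log2 3.34 ± 0.38, adjusted p = 0.00476). Neither stage change passed the threshold in aak(0) (log2 0.18 for vab-3 and 0.55 for ceh-32), although the ceh-32 libraries of the aak(0) post-dauers both lay above those of the aak(0) dauers. Only 8 called genes were high in the hzl-1 daf-2 post-dauers, among them the mitochondrial chaperonin gene hsp-60, at 69.8 and 75.8 FPKM in aak(0) post-dauers and 56.1 and 60.2 in aak(0) dauers, against 172 and 150.0 in hzl-1 daf-2 post-dauers and 45.4 and 36.5 in hzl-1 daf-2 dauers (log2 -1.63 ± 0.23, adjusted p = 0.00917; edgeR adjusted p = 0.0654).

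The 110 genes with high aak(0) post-dauers included collagen, lectin, neuropeptide and early embryonic genes. The collagen gene dpy-17 (III:5107330-5108497) had 94.98 and 104.46 FPKM in aak(0) post-dauers and 7.83 and 7.02 in aak(0) dauers, against 5.09 and 6.61 in hzl-1 daf-2 post-dauers and 5.54 and 5.12 in hzl-1 daf-2 dauers. The aak(0) post-dauers alone were high (log2 3.47 ± 0.28, adjusted p = 0.00191; edgeR adjusted p = 0.00141). The lectin-domain gene clec-266 had 237 and 218 FPKM in aak(0) post-dauers and 3.18 and 3.07 in aak(0) dauers, against 4.63 and 14.2 in hzl-1 daf-2 post-dauers and 0.69 and 1.18 in hzl-1 daf-2 dauers (log2 3.52 ± 0.63, adjusted p = 0.019). It overlaps the exons of the channel gene kqt-1 on the opposite strand by 371 of 3036 bases. The neuropeptide-like gene nlp-39 (I:12461645-12461925) had 373 and 365 FPKM in aak(0) post-dauers and 3.53 and 1.43 in aak(0) dauers, against 2.25 and 5.32 in hzl-1 daf-2 post-dauers, and was listed at 0 in both hzl-1 daf-2 dauer libraries. Limma called nlp-39 (adjusted p = 0.0061) and edgeR did not (adjusted p = 0.801).

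Early embryonic genes are switched on when the zygotic genome starts to be transcribed. Of 37 found in the files 22 passed the filter, 7 of them only through the aak(0) post-dauers, the mean of the other 6 libraries being under 1 FPKM. Limma called 9 of the 22 higher, all with high aak(0) post-dauers, and 1 lower. Of the 9, 6 passed only through that group, so the count is a description and not a share to set against all genes. The median was log2 0.91 by limma (1.24 relative to all genes) and, over 27 genes, -0.78 by edgeR, the opposite sign; edgeR called 1 higher and 3 lower. Limma's 9 were 4 without either aak(0) dauer or either hzl-1 daf-2 post-dauer library, and its 1 lower call became 3 without aak(0) post-dauer library 1 or hzl-1 daf-2 dauer library 2. The Skp1-related ubiquitin ligase gene skr-9 had 29.6 and 27.8 FPKM in aak(0) post-dauers and 0.93 and 0.81 in aak(0) dauers, against 0.52 and 0.69 in hzl-1 daf-2 post-dauers, and was listed at 0 in both hzl-1 daf-2 dauer libraries. Its sign turned between tools: log2 3.31 ± 0.30 (adjusted p = 0.00242) by limma and log2 -0.84 (adjusted p = 0.64) by edgeR, both resting on the value added to a group at 0. Its relatives skr-8, skr-10 and skr-13 had 28.8 to 53.9 FPKM in aak(0) post-dauers and at most 3.08 FPKM in the other groups. The embryo markers summed to 7.23 and 4.97 FPKM in aak(0) post-dauers, 1.79 and 1.36 in aak(0) dauers, 1.07 and 2.41 in hzl-1 daf-2 post-dauers and 0.96 and 0.83 in hzl-1 daf-2 dauers. Of these markers 1 of 6 passed the filter, end-1, end-3 and med-1 were each at 0 in at least 1 library, and the part of embryos in the result was not tested. The genes sls-2.5 and pes-2.2, also named by the rule, rested on at most 13 reads in any library.

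Only 5 called genes were low in the aak(0) post-dauers. The superoxide dismutase gene sod-5 (II:4417683-4419131), a known target of the transcription factor DAF-16, had 6.89 and 3.16 FPKM in aak(0) post-dauers and 146 and 156 in aak(0) dauers, against 111 and 35.9 in hzl-1 daf-2 post-dauers and 89.1 and 210.3 in hzl-1 daf-2 dauers. The small heat shock gene F08H9.4 had 6.98 and 2.65 FPKM in aak(0) post-dauers and 132 and 107 in aak(0) dauers, against 169 and 60.9 in hzl-1 daf-2 post-dauers and 33.6 and 144 in hzl-1 daf-2 dauers. Replicates lay far apart in both hzl-1 daf-2 groups, and the calls (log2 -3.63 ± 0.88, adjusted p = 0.0459, and log2 -5.01 ± 1.09, adjusted p = 0.0342) were kept in 3 and 2 of the 8 fits without a library. EdgeR called both (adjusted p = 0.016 and 0.0111).

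The aak(0) dauers departed upward for 58 genes. The body wall muscle myosin gene myo-3 (V:12226816-12234343) had 18.06 and 16.18 FPKM in aak(0) post-dauers and 68.88 and 73.95 in aak(0) dauers, against 22.4 and 16.6 in hzl-1 daf-2 post-dauers and 9.35 and 14.8 in hzl-1 daf-2 dauers. It fell with stage in aak(0) and did not change beyond the threshold in hzl-1 daf-2 (interaction log2 -2.67 ± 0.36, adjusted p = 0.00803). Of 32 muscle genes it was 1 of 2 called lower, below the 7.8% of all genes, and 0 were called higher, against 3.54%. DESeq2 called 3 lower and 3 higher. The count of lower calls was 9 without hzl-1 daf-2 dauer library 2, 5 without aak(0) post-dauer library 1, 0 without either aak(0) dauer library, and 1 without aak(0) post-dauer library 2 or either hzl-1 daf-2 post-dauer library. Body muscle markers (3 of 3 tested, myo-3 among them) summed to 266 and 282 FPKM in aak(0) post-dauers, 646 and 727 in aak(0) dauers, 283 and 201 in hzl-1 daf-2 post-dauers and 379 and 399 in hzl-1 daf-2 dauers. The touch receptor neuron genes mec-7, mec-12 and mec-4, for tubulins and a channel subunit, were likewise high there. For mec-7 the values were 15.2 and 14.8 FPKM in aak(0) post-dauers and 58.5 and 67 in aak(0) dauers, against 20.3 and 19.4 in hzl-1 daf-2 post-dauers and 8.8 and 18.5 in hzl-1 daf-2 dauers (log2 -2.59 ± 0.45, adjusted p = 0.0169). The 3 were the neuron markers called lower of 31, and 2 others, odr-10 and cho-1, were called higher, against 7.8% and 3.54% of all genes. All 5 calls were lost without either aak(0) dauer or either hzl-1 daf-2 post-dauer library. The neuron markers (4 of 4 tested) summed to 312 and 356 FPKM in aak(0) post-dauers, 388 and 393 in aak(0) dauers, 182 and 182 in hzl-1 daf-2 post-dauers and 293 and 408 in hzl-1 daf-2 dauers, and their part in the result was not tested. The gene mec-4 shares 78 exonic bases with aak-2 on the opposite strand, and whether counting used strand is not given in the sources used here. The spliced leader RNA gene sls-2.1 was also named by the rule and rested on at most 4 reads in any library.

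Only 11 called genes were low in the aak(0) dauers. The receptor tyrosine kinase gene cam-1 (II:9295918-9310304) had 42.1 and 41.5 FPKM in aak(0) post-dauers and 14.3 and 15.4 in aak(0) dauers, against 28.2 and 25.8 in hzl-1 daf-2 post-dauers and 26.7 and 24.7 in hzl-1 daf-2 dauers. The stage change was in aak(0) and not in hzl-1 daf-2 beyond the threshold (interaction log2 1.37 ± 0.22, adjusted p = 0.013). The BTB-domain gene btb-20 was also lowest in the aak(0) dauers, with the other 3 group means between 24.9 and 29.2 FPKM (log2 1.31 ± 0.22, adjusted p = 0.0165).

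Mitochondrially encoded genes were higher in the interaction as a group. All 14 tested were called higher, against 3.54% of all genes, with a median of log2 2.28 (2.61 relative to all genes); edgeR called 12 and the median-centred fit 12. The departing group differed among them: the aak(0) dauers were low for atp-6 and ctc-2, the hzl-1 daf-2 dauers high for nduo-2, nduo-3 and ndfl-4, and the hzl-1 daf-2 post-dauers low for the 2 ribosomal RNAs, while 7 of the 14 had no single departing group. The ATP synthase subunit gene atp-6 (MtDNA:2634-3235) had 2458 and 2248 FPKM in aak(0) post-dauers and 695 and 769 in aak(0) dauers, against 1253 and 1580 in hzl-1 daf-2 post-dauers and 2405 and 2479 in hzl-1 daf-2 dauers. It rose with stage in aak(0) (log2 1.68) and fell in hzl-1 daf-2 (log2 -0.79), with an interaction of 2.48 ± 0.23 (adjusted p = 0.00268). The complex I subunit gene ndfl-4 had 341 and 447 FPKM in aak(0) post-dauers and 369 and 376 in aak(0) dauers, against 214 and 193 in hzl-1 daf-2 post-dauers and 1075 and 993 in hzl-1 daf-2 dauers (log2 2.41 ± 0.23, adjusted p = 0.00294). The levels of ndfl-4 in aak(0) overlapped between stages, whereas in hzl-1 daf-2 the dauers were far above the post-dauers. The count of 14 was 6 without either aak(0) dauer library, 7 without hzl-1 daf-2 post-dauer library 1, and 10 to 14 without any other. Of 41 nuclear-encoded respiratory chain genes 0 were called higher and 1 lower, against 3.54% and 7.8% of all genes, and edgeR called 1 higher and DESeq2 4. Of 80 cytosolic ribosomal protein genes 0 were called in either direction by limma, edgeR or DESeq2, and 1 had an unadjusted p under 0.05 by limma. The libraries were poly(A)-selected, and ribosomal RNA took 0.548% to 12.4% of their reads, which was not tested as a covariate.

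**Figure D5:**
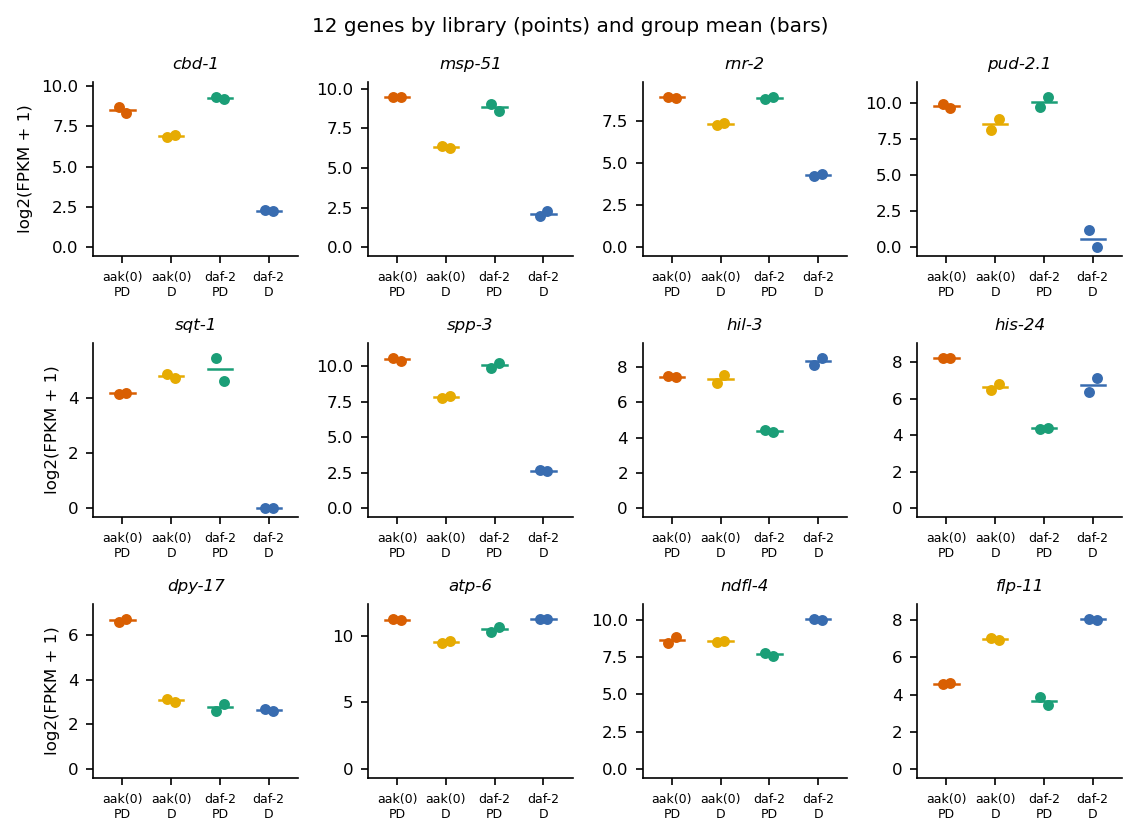
Points are the 2 libraries of each group, and the bars are group means, on log2(FPKM + 1), for 12 genes (PD post-dauer, D dauer, daf-2 for hzl-1 daf-2). The hzl-1 daf-2 dauers are lowest for cbd-1 to spp-3, the hzl-1 daf-2 post-dauers lowest for hil-3 and his-24, and the aak(0) post-dauers highest for dpy-17.

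Part of the neuropeptide and insulin genes were called higher in the interaction. FMRFamide-like neuropeptide genes fell with stage in both genotypes, 29 of 30 in aak(0) and 30 of 30 in hzl-1 daf-2, against 27% and 27.8% of all genes. The fall was smaller in aak(0) for 12 of 30 genes, called higher in the interaction, against 3.54% of all genes, and 0 were called lower, against 7.8%. The median was log2 1.00 (1.33 relative to all genes), and edgeR and the median-centred fit each called 14 higher. No single group departed for any of the 12. The gene flp-11 (X:4677342-4678129), of a sleep-promoting neuron, had 22.9 and 23.3 FPKM in aak(0) post-dauers and 131 and 123 in aak(0) dauers, against 13.75 and 10.01 in hzl-1 daf-2 post-dauers and 271 and 259 in hzl-1 daf-2 dauers. All 4 groups were apart (log2 1.97 ± 0.25, adjusted p = 0.00628). The gene flp-13 was in the same order (log2 2.73 ± 0.36, adjusted p = 0.00753). The 12 calls were 2 and 3 without aak(0) dauer libraries 1 and 2 and 6 without hzl-1 daf-2 post-dauer library 2. Summed neuron markers, given above, were lowest in hzl-1 daf-2 post-dauers.

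Of 32 insulin-like peptide genes, the ligands of DAF-2, 9 were called higher and 1 lower, against 3.54% and 7.8% of all genes. The median was log2 1.59 relative to all genes, and the calls were 8 and 0 by edgeR and 15 and 1 in the median-centred fit. Of the 9, 7 had no single departing group; ins-26 was high in the hzl-1 daf-2 dauers and ins-35 low in the hzl-1 daf-2 post-dauers. The gene ins-28 had 9.57 and 7.66 FPKM in aak(0) post-dauers and 32.2 and 25.7 in aak(0) dauers, against 2.15 and 1.53 in hzl-1 daf-2 post-dauers and 33.8 and 29.7 in hzl-1 daf-2 dauers. The post-dauers differed and the dauers overlapped (log2 1.90 ± 0.33, adjusted p = 0.017). The 9 calls were 5 without aak(0) post-dauer library 2, 0 without either aak(0) dauer library, 2 and 0 without hzl-1 daf-2 post-dauer libraries 1 and 2, and 5 without hzl-1 daf-2 dauer library 1. The single lower call, ins-37, became 2 calls without aak(0) post-dauer library 1, 3 without hzl-1 daf-2 dauer library 2 and 0 without any other. The TGF-beta ligand gene daf-7 (III:811828-813773), which promotes reproductive growth over dauer entry, had 7.94 and 6.84 FPKM in aak(0) post-dauers and 12.25 and 10.08 in aak(0) dauers, against 1.53 and 1.24 in hzl-1 daf-2 post-dauers and 42.1 and 28.2 in hzl-1 daf-2 dauers. Its fall with stage was called in hzl-1 daf-2 (log2 -3.90) and not in aak(0) (log2 -0.53), with an interaction of 3.36 ± 0.37 (adjusted p = 0.00406). The nematocin neuropeptide gene ntc-1 (log2 3.09 ± 0.40, adjusted p = 0.00672) and the diacetyl receptor gene odr-10 (log2 1.92 ± 0.35, adjusted p = 0.0195) also fell less in aak(0).

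Yolk and uterine protein genes rose with stage in both genotypes, and 6 of the 11 rose less in aak(0) by the test. Of 6 vitellogenin genes limma called 4 lower, against 7.8% of all genes (median log2 -2.73, -2.40 relative to all genes), and edgeR 1. The gene vit-3 (X:3567355-3572549) had 418 and 369 FPKM in aak(0) post-dauers and 0.43 and 0.28 in aak(0) dauers, against 2360 and 2671 in hzl-1 daf-2 post-dauers and 0.18 and 0.21 in hzl-1 daf-2 dauers. The post-dauer groups lay far apart and all dauers were near 0 (log2 -2.85 ± 0.23, adjusted p = 0.00187; edgeR adjusted p = 0.0263). Of 5 uterine lumen protein genes 2 were called lower, ule-3 and ule-4, against 7.8% of all genes, and 3 by edgeR. For ule-4 the values were 4245 and 3169 FPKM in aak(0) post-dauers and 22.8 and 19.5 in aak(0) dauers, against 1958 and 2665 in hzl-1 daf-2 post-dauers and 0.63 and 0 in hzl-1 daf-2 dauers. Here the aak(0) post-dauers were the highest group and the dauers differed most (log2 -3.43 ± 0.41, adjusted p = 0.00523), so the post-dauer groups stood in opposite order for vit-3 and ule-4.

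Genes whose stage change was called in opposite directions in the 2 genotypes were seen across several families. The collagen gene col-41 (X:15175035-15176481) had 2.62 and 2.52 FPKM in aak(0) post-dauers and 14.5 and 14.1 in aak(0) dauers, against 11.64 and 5.49 in hzl-1 daf-2 post-dauers and 0.17 and 0.28 in hzl-1 daf-2 dauers. It fell with stage in aak(0) and rose in hzl-1 daf-2, an interaction of -4.99 ± 0.47 (adjusted p = 0.00273). The gene nspe-7 had 533 and 279 FPKM in aak(0) post-dauers and 116 and 123 in aak(0) dauers, against 25.31 and 24.22 in hzl-1 daf-2 post-dauers and 53.8 and 174 in hzl-1 daf-2 dauers. It rose in aak(0) (log2 1.68) and fell in hzl-1 daf-2 (log2 -1.93), although its hzl-1 daf-2 dauer libraries lay on both sides of the aak(0) dauers (interaction 3.61 ± 0.76, adjusted p = 0.0311). The caenacin antimicrobial peptide gene cnc-5 fell in aak(0) (log2 -4.56) and did not pass the threshold in hzl-1 daf-2, with an interaction of -5.96 ± 0.92 (adjusted p = 0.0115). The adenine nucleotide translocator gene ant-1.2 had the same signs, and its rise in hzl-1 daf-2 was not called either (log2 1.78, limma adjusted p = 0.106). Its libraries lay far apart there, at 19.49 and 3.08 FPKM in post-dauers and 0.52 and 3.65 in dauers (interaction log2 -5.49 ± 1.21, limma adjusted p = 0.0354).

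The remaining lists held few calls. Of 11 adult cuticle collagens 2 were called higher and 2 lower, of 13 secreted SCP-like genes 1 higher and 4 lower, and of 23 antioxidant genes 1 higher and 2 lower. Within the last, the glutathione transferase gene gst-4 (log2 -1.79 ± 0.38, adjusted p = 0.0318) was low in hzl-1 daf-2 dauers. Small heat shock genes held 1 higher and 2 lower calls of 16, trehalose genes 1 higher of 8, and dauer formation and insulin signalling genes 1 higher of 31, which was daf-7. Of 39 genes for histone methylation and heterochromatin 2 were called lower, the methyltransferase gene set-4 (log2 -1.48 ± 0.25, adjusted p = 0.015) and lin-54 (log2 -1.42 ± 0.26, adjusted p = 0.0197); without aak(0) post-dauer library 1 the count was 11, and it was 0 or 1 without either aak(0) dauer or either hzl-1 daf-2 post-dauer library. Adult collagens had 4 lower calls without aak(0) dauer library 2, and 1 higher call without any library but aak(0) post-dauer library 1 or hzl-1 daf-2 dauer library 2. Lower calls ran from 0 to 3 for the SCP-like genes, 0 to 6 for the antioxidant genes and 0 to 3 for the small heat shock genes when 1 library was left out, with 0 for all 3 lists without aak(0) post-dauer library 2 or hzl-1 daf-2 post-dauer library 1. The higher calls of the SCP-like, antioxidant, small heat shock and trehalose genes were lost without either aak(0) dauer library, and those of the trehalose and small heat shock genes also without either hzl-1 daf-2 post-dauer library; that of the SCP-like genes was lost without hzl-1 daf-2 post-dauer library 2 too. Higher calls were 2 for the antioxidant genes without hzl-1 daf-2 dauer library 1 and 2 for the dauer formation genes without aak(0) post-dauer library 2. Dauer formation genes had 9 lower calls without aak(0) post-dauer library 1. DESeq2 called 4 antioxidant genes higher and 5 lower, and 4 small heat shock genes lower. These shares were near or below the 11.3% of all genes except for the cuticle collagens, the SCP-like genes and the small heat shock genes, lists of at most 16. Of the 13 SCP-like genes 2 passed the filter only through the aak(0) dauers, the mean of the other 6 libraries being under 1 FPKM. Of these 2, scl-26 was among the 4 lower calls, so the SCP-like count is a description and not a share to set against all genes. None of the 4 tested male somatic genes was called by limma, 1 having an unadjusted p under 0.05, and edgeR and DESeq2 each called 1 higher.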

How the data were processed

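Poly(A)-selected RNA of whole animals was sequenced as read pairs, 2 libraries per group. Per the submitters' processing notes, Trimmomatic 0.35, STAR 2.7.1a, RSEM, DESeq2 1.30.1 and the build WBcel235 were used; strandedness is not given in the sources used here. The FPKM values and the normalized signal per gene were deposited by the authors for single libraries. The deposited signal is gene counts divided by 1 size factor per library, in separate tables per genotype; undoing that division gave whole reads for 100% of values at a tolerance of 1e-06.

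Limma 3.58.1 (R 4.3.3, trend) was fitted on log2(FPKM + 1) with 1 mean per group and all 8 libraries, keeping genes that averaged 1 FPKM or more. This left 4 residual degrees of freedom. Benjamini-Hochberg adjustment ran over all tested genes, with a threshold of 0.05. EdgeR 4.0.16 (quasi-likelihood) and DESeq2 1.42.0 on whole reads, median-centred libraries, a pseudocount of 0.1, other FPKM minima, the replicate block and each library left out were alternatives. Same-numbered libraries did not deviate together (correlations -0.258 to 0.0147), so the numbers were not treated as pairs. Limma and edgeR were also run on simulated counts. These had the same dispersion in every group, so they do not cover the unequal spread between the groups here.

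Members of a list were described by counts and medians, with no set test. The 36 lists, written from textbook knowledge, the sort and the named genes were chosen with earlier results of these data known; 1112 of 1129 symbols matched. Named genes were drawn from the called genes, except daf-2, hzl-1 and both alpha subunit genes, which were always named. Up to 4 per departing group and direction with the largest interaction were taken. These had a mean of at least 5 FPKM, a standard gene name and both libraries outside the range of the rest. The 2 called members per list with the smallest adjusted p were added. Other members are given as examples chosen after their values were seen. Near-identical copies (msp, his, pud, skr) may share reads. Intervals and p-values cover the spread between these libraries only.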

Additional observations from a re-analysis of the deposited data

Results flagged for a closer look

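The stage change differed between the genotypes for 544 genes with a higher and 1199 with a lower interaction, and for 88 of the 91 genes named by the rule; each was a test of the difference itself (limma, Benjamini-Hochberg adjusted p under 0.05). Among the named genes 8 had stage changes called in opposite directions in aak(0) and hzl-1 daf-2. The interaction was log2 2.48 for atp-6, 3.95 for his-24, 3.49 for fipr-13, 2.65 for his-46, 3.61 for nspe-7 and 2.34 for lips-16, which rose with stage in aak(0) and fell in hzl-1 daf-2. It was log2 -6.20 for col-17 and -4.99 for col-41, which fell in aak(0) and rose in hzl-1 daf-2. The gene his-46 rested on 1 to 7 reads per library, and lips-16 is annotated as a pseudogene in the files.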

How the results depend on the processing

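With 2 libraries a group, the number of calls changed much with the library left out. Limma took 1 spread per gene over all groups. Replicate differences had an SD of 0.443 in aak(0) dauers and 0.467 in hzl-1 daf-2 post-dauers. They had one of 0.817 in aak(0) post-dauers and 0.760 in hzl-1 daf-2 dauers. The part of this unequal spread in the changed counts was not tested. When 1 library was left out, all calls ran from 352 to 3947, higher calls from 84 to 736 and lower calls from 268 to 3211. Genes sorted by departing group ran from 29 to 449 for aak(0) post-dauers, 19 to 482 for aak(0) dauers, 21 to 680 for hzl-1 daf-2 post-dauers, 196 to 1404 for hzl-1 daf-2 dauers and 82 to 1397 for no single group; in each such fit the lone library of a group was assumed to vary like the others. Higher calls were 1076 by DESeq2, 891 by edgeR and 1007 with median-centred libraries. Genes departing in hzl-1 daf-2 post-dauers numbered 229 by DESeq2, 201 by edgeR and 48 with a gap over 2 times the range. Those without a single group were 1007 by DESeq2 and 1174 with the wider gap, and hzl-1 daf-2 dauers then departed for 388. Genes departing in aak(0) post-dauers numbered 72 by edgeR, 52 at a mean of 5 FPKM, 192 with no filter and 62 at a pseudocount of 0.1. For aak(0) dauers these were 44, 30, 121 and 35. The replicate block, whose numbers do not pair the libraries, left 1044 calls, 307 higher and 737 lower, with 37 departing in aak(0) dauers, 69 in hzl-1 daf-2 post-dauers, 561 in hzl-1 daf-2 dauers and 297 with no single group; 1030 of its calls were also calls without it. Signs turned for skr-9 by edgeR (log2 -0.84) and for C44H9.4 at a pseudocount of 0.1 (-0.13). Without single libraries C44H9.4 ran from -0.69 to 0.83. It was negative without aak(0) post-dauer library 1 and, at -0.29, hzl-1 daf-2 post-dauer library 1. Without single libraries daf-2 ran from -1.06 to 0.15, positive without aak(0) post-dauer library 2. No value with a turned sign was called, but daf-2, with its negative sign kept, was called in 1 of the 8 fits without a library. The cause was not tested. Across named genes, 1125 alternative values kept their direction and side of the threshold, 3 gained the call, 5 turned and the rest lost it. Genes under about 1 FPKM rest on few reads, and their changes were not detectable firmly at this depth.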
